A study of Mus musculus with 9 samples.

Results

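The genes described here encode the proteins of the cytosolic ribosome. They were taken by symbol: protein-coding mouse genes named Rpl or Rps followed by a digit, together with Rplp0, Rplp1, Rplp2 and Rpsa, and without the Rps6k kinases and the pseudogenes marked -ps. The rule gave 90 of the 32976 genes in the count tables. Of these, 77 are standard ribosomal proteins, 46 of the large and 31 of the small subunit. A further 11 are paralogs (Rpl3l, Rpl7l1, Rpl10l, Rpl22l1, Rpl27rt, Rpl35rt, Rpl36al, Rpl39l, Rps4l, Rps27l and Rps27rt). The remaining 2, Rps19bp1 and Rps23rg1, match by name only and encode no ribosomal protein. Some genes that supply ribosomal proteins, Fau and Rack1 among them, are not matched by the rule.

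The RNA came from CD8+ T cells that had entered CT26 tumors, a mouse colorectal carcinoma line grown under the skin of wildtype BALB/c mice. All groups had received PD-1 antibodies (clone RMP1-14) on days 3, 6 and 9, and tumors were taken between days 10 and 12. Cells were CD8+CD44+ and were sorted with a tetramer that carries GSW11, a peptide antigen of the tumor, into cells that bound it strongly (high avidity) or weakly (low avidity). TetHighProg is the high avidity population of progressing tumors (replicates 1, 2 and 5), TetLowReg the low avidity population of regressing tumors (6, 7 and 8) and TetLowProg the low avidity population of progressing tumors (9, 10 and 12). No untreated T cells enter these comparisons. The tumors were 3 regressing and 3 progressing ones, and the labels do not tie libraries to mice, so TetHighProg and TetLowProg libraries may come from the same tumors. The p-values measure only the spread between these 9 libraries.

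Ribosomal proteins are made in near-equal numbers, since each ribosome holds a single copy of most of them, and together they are among the most abundant mRNAs of a growing cell. T cells raise ribosome production when they are activated and divide. Most of these mRNAs begin with a run of pyrimidines, the terminal oligopyrimidine or TOP motif, through which the mTORC1 kinase and the RNA-binding protein Larp1 control their translation.

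RNA was amplified as full-length cDNA by Smart-seq2 with 22 cycles of PCR and no molecular identifiers, so counting intervals and limits cover counting error only. The reads counted on genes ranged from 16405306 to 36429515 a library. The number of genes with at least 10 counts ranged from 599 (TetHighProg 2) to 8071 (TetLowProg 9), and it was 1298 or lower in TetHighProg 1 and 2, TetLowReg 6 and TetLowProg 10. T cell genes were uneven too: Cd3e had 0 counts in TetLowReg 6, Cd8a had 0 in TetHighProg 1 and 2 and in TetLowProg 10, and Cd8b1 had at least 1250 in 8 libraries but 8 in TetLowReg 6. Of 20 T cell genes, 6 to 20 had at least 10 counts per library. Of 11 B cell genes, 10 were found in each of TetLowReg 7, TetLowReg 8 and TetLowProg 12, where they took 0.307% to 0.329% of gene counts, and at most 1 in any other library. In bulk samples, fewer cells of a type and less RNA per cell cannot be told apart.

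Start sites are shown first, because the TOP motif is what the mRNAs of this family are known to share. RefSeq start sites on the build GRCm38.p6 were matched for 67 of the 90 symbols, 57 of them standard ribosomal proteins. The search took an unbroken run of at least 8 pyrimidines that begins with C, on the transcribed strand, within 15 bases on either side of the annotated start. Such a run was present in 24 of the 57 (42.1%) and in 2887 of 26958 other genes (10.7%). The windows below are 30 bases long and belong to genes that the results turn on, with the pyrimidine run in capitals. Rpl4, Rpl38, Rpl13a, Rps18 and Rps15a hold a run. Rps25, Rps3 and Rps28 hold none in this window, which says only that the letters are not there.
Rpl4 (chr9:64173372-64173401, plus strand): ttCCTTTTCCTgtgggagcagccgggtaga
Rpl38 (chr11:114668565-114668594, plus strand): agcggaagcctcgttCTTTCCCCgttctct
Rpl13a (chr7:45128731-45128760, minus strand): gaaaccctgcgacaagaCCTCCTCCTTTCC
Rps18 (chr17:33955651-33955680, minus strand): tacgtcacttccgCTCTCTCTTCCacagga
Rps15a (chr7:118116133-118116162, minus strand): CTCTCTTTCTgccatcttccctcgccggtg
Rps25 (chr9:44407699-44407728, plus strand): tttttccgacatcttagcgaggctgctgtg
Rps3 (chr7:99483695-99483724, minus strand): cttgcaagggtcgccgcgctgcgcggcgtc
Rps28 (chr17:33824548-33824577, minus strand): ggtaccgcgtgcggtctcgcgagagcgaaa

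Detection was the first feature in which the libraries differed. At least 10 counts were reached by 41, 21 and 70 of the 90 genes in TetHighProg 1, 2 and 5, by 22, 86 and 81 in TetLowReg 6, 7 and 8, and by 85, 38 and 83 in TetLowProg 9, 10 and 12. Each group thus held at least 1 library with under 50% of the genes found, and the groups overlapped. Among the 77 standard proteins, all 77 were found in TetLowReg 7 and TetLowProg 9, 76 in TetLowReg 8 and TetLowProg 12, and 66 in TetHighProg 5. Only 39, 21, 21 and 36 were found in TetHighProg 1, TetHighProg 2, TetLowReg 6 and TetLowProg 10. In every library the genes were found more often than protein-coding genes at large: of 20726 protein-coding genes, 2.65% (TetHighProg 2) to 35.4% (TetLowProg 9) had 10 counts, against 23.3% (TetHighProg 2) to 95.6% (TetLowReg 7) of the ribosomal protein genes. The mean number found was 44.0 ± 24.6 for TetHighProg, 63.0 ± 35.6 for TetLowReg and 68.7 ± 26.6 for TetLowProg (SD, n = 3 each). The differences were 19.0 genes for TetLowReg minus TetHighProg (two-sided exact permutation test, p = 0.5), 24.7 for TetLowProg minus TetHighProg (exact p = 0.3) and 5.67 for TetLowProg minus TetLowReg (exact p = 0.7). With 3 libraries a side, p cannot go below 0.1. The last difference changed sign without TetLowReg 6 (-14.8), TetLowProg 9 (-2.5) or TetLowProg 12 (-1.5). Without TetLowReg 6 the first difference was 39.5, without TetHighProg 5 it was 32, without TetHighProg 2 or TetLowReg 7 it was 7.5 and without TetLowReg 8 it was 10. The second difference was 37.7 without TetHighProg 5 and 40 without TetLowProg 10, but 13.2 without TetHighProg 2, 16.5 without TetLowProg 9 and 17.5 without TetLowProg 12.

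**Figure D1:**
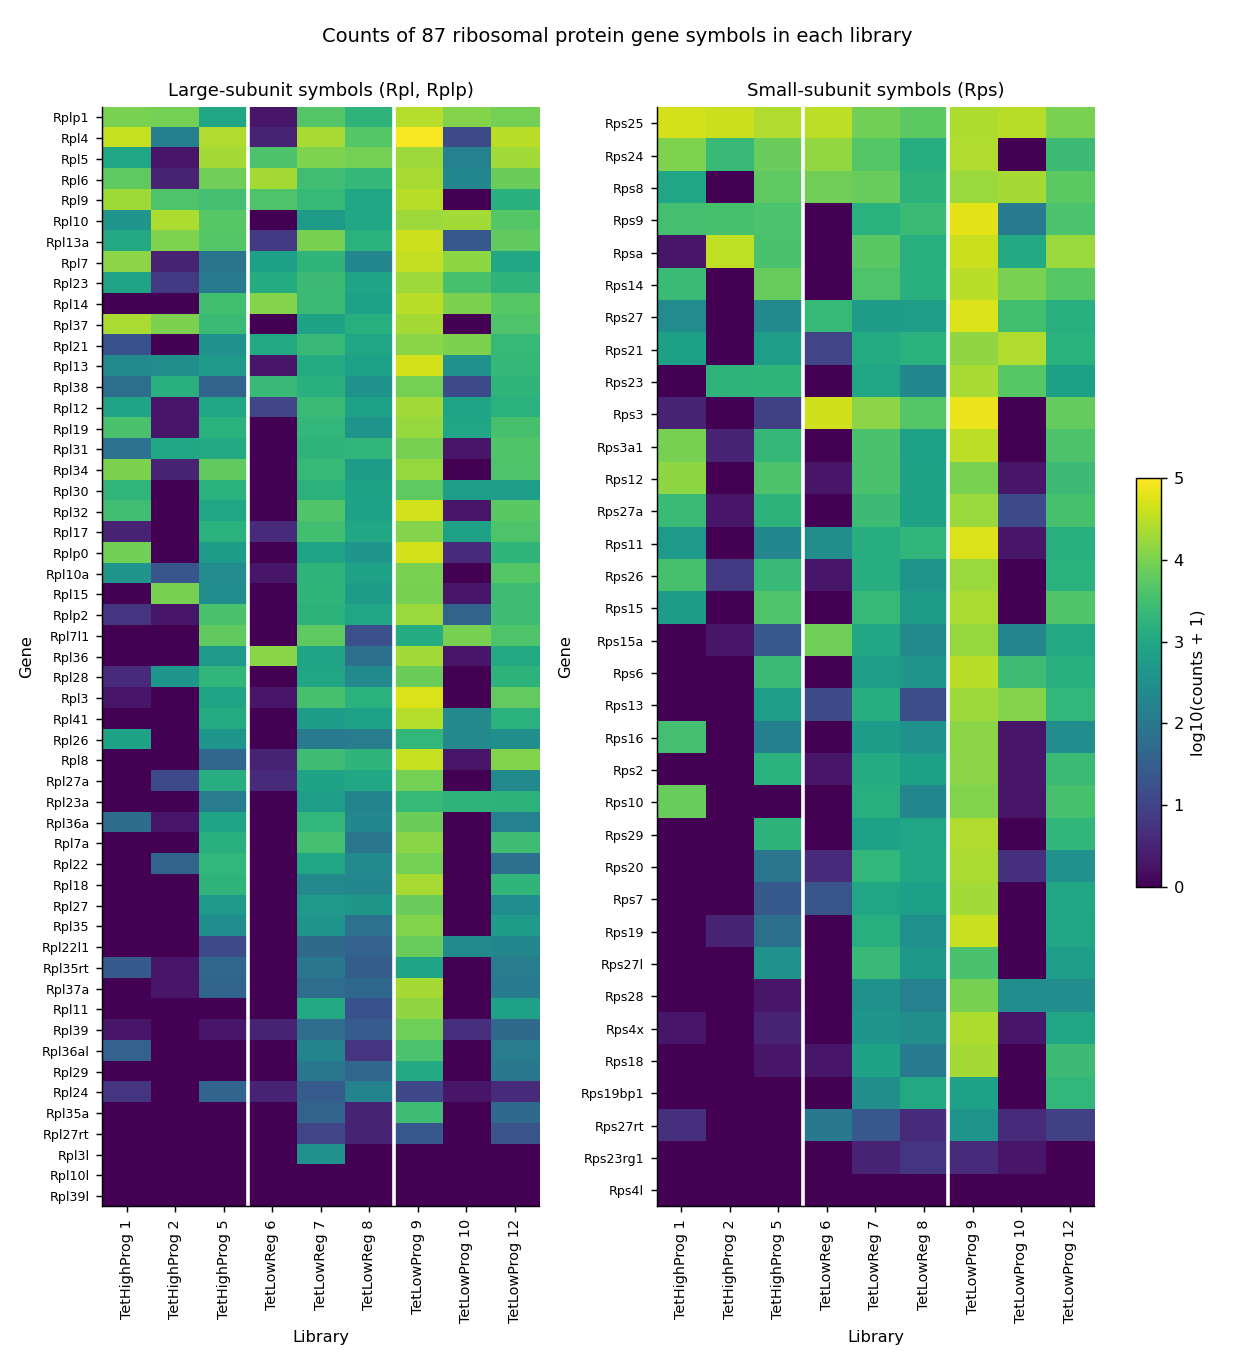
Counts of 87 of the 90 genes (rows, ordered by mean level within the subunit) in each of the 9 libraries (columns), as log10(counts + 1) in color, with white lines between the groups. TetHighProg 1 and 2, TetLowReg 6 and TetLowProg 10 are dark over most rows, with 41, 21, 22 and 38 genes at 10 counts or more, while Rps25 is bright in all 9 columns.

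The share of gene counts that fell on these genes was 0.762%, 0.631% and 0.869% in TetHighProg 1, 2 and 5, 0.800%, 0.554% and 0.492% in TetLowReg 6, 7 and 8, and 4.95%, 0.937% and 0.915% in TetLowProg 9, 10 and 12. Counting error was small beside these values, with 95% Clopper-Pearson intervals of 0.489% to 0.495% in TetLowReg 8 and 4.94% to 4.95% in TetLowProg 9. TetLowProg 9 stood apart from all other libraries. TetHighProg 2 and TetLowReg 6, with 21 and 22 genes found, still gave 0.631% and 0.800% of their counts to them, against 0.554% and 0.492% in TetLowReg 7 and 8 with 86 and 81 genes found. The 3 TetLowProg libraries lay above all others, with a mean of 2.27 ± 2.32% (SD, n = 3) against 0.754 ± 0.119% in TetHighProg and 0.615 ± 0.163% in TetLowReg. The differences were 1.51 percentage points from TetHighProg and 1.65 from TetLowReg (exact p = 0.1 for both, the smallest possible), and they shrank to 0.172 and 0.311 without TetLowProg 9. TetLowReg minus TetHighProg was -0.138 points (exact p = 0.3). Mitochondrially encoded genes took 44.5% of the counts of TetLowReg 7 and 1.36% to 14.2% elsewhere. With them left out of the total, TetLowReg minus TetHighProg became 0.0130 points (exact p = 0.9), and TetLowProg minus TetLowReg was 1.53 points with groups that overlapped (exact p = 0.3).

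**Figure D2:**
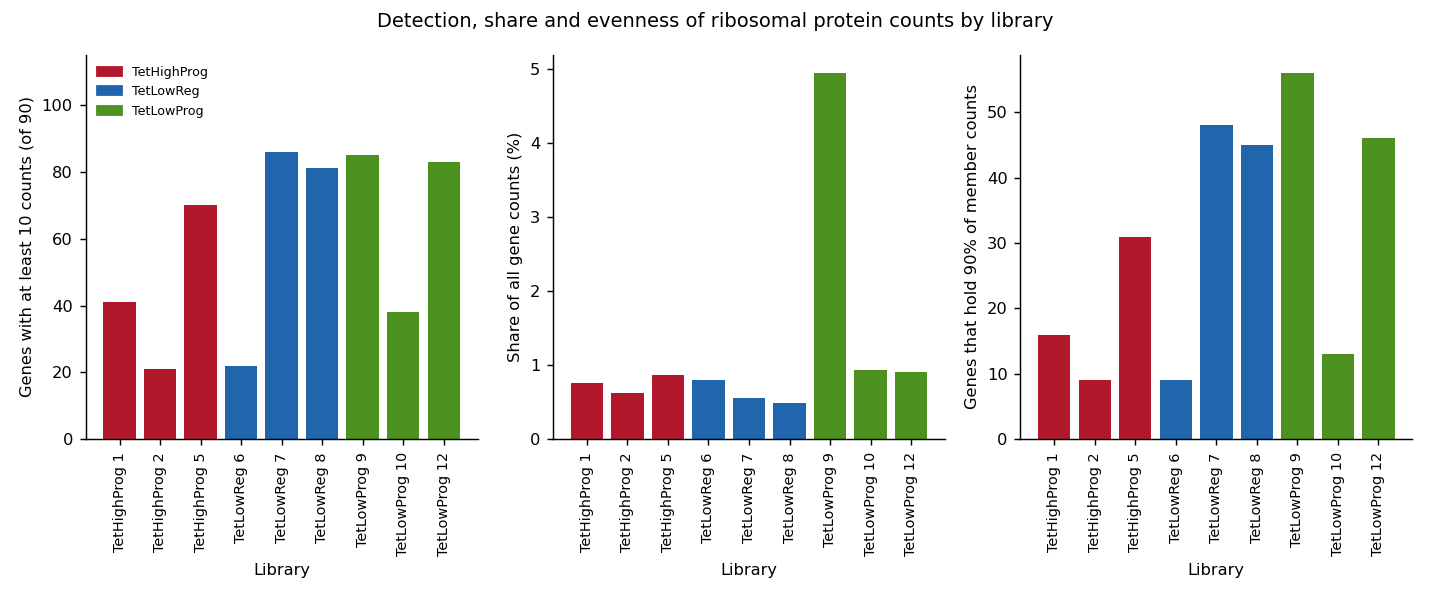
Bars for each of the 9 libraries, colored by group: the number of the 90 genes with at least 10 counts (left), their share of all gene counts in percent (middle) and the number of genes that together hold 90% of the ribosomal protein counts (right). Detection and evenness vary within each group, and the share stays between 0.492% and 0.937% except for 4.95% in TetLowProg 9.

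Counts were spread over few genes where few were found. The genes that together made 90% of the ribosomal protein counts numbered 16, 9 and 31 in TetHighProg 1, 2 and 5, 9, 48 and 45 in TetLowReg 6, 7 and 8, and 56, 13 and 46 in TetLowProg 9, 10 and 12. TetLowProg 9 was the most even library, with 20 genes making 50% of the counts, and TetHighProg 2 and TetLowReg 6 the least, with 3 each. The single highest gene was Rps25, a small-subunit protein, in TetHighProg 1 (47107 counts, 18.5% of the ribosomal protein counts), TetHighProg 2 (38915, 24.4%) and TetLowProg 10 (28971, 12.3%). Rpl4, which lines the tunnel through which the new peptide leaves, was highest in TetHighProg 5 (25061, 12.7%), TetLowReg 7 (22229, 11%), TetLowProg 9 (88997, 4.95%) and TetLowProg 12 (30019, 10.4%). Rps3, at the entry of the mRNA channel, led in TetLowReg 6 (43972, 24.9%), and Rpl5 in TetLowReg 8 (9211, 11.4%). The leading genes therefore differed between libraries of the same group.

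**Figure D3:**
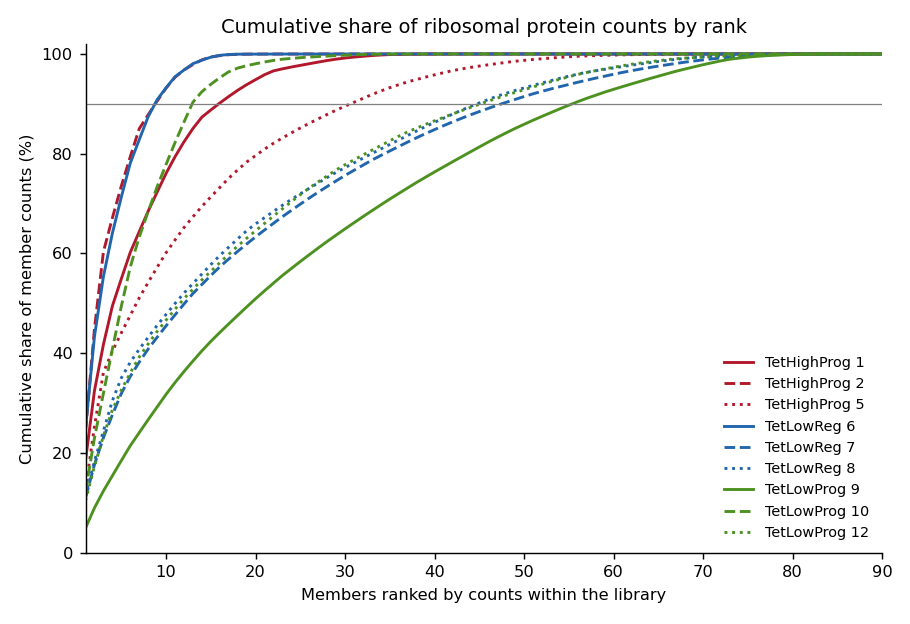
Cumulative share of ribosomal protein counts (percent) against the rank of the genes within each library, 1 line per library in its group's color, with a grey line at 90%. The lines of TetHighProg 1 and 2, TetLowReg 6 and TetLowProg 10 cross 90% within 9 to 16 genes, and that of TetLowProg 9 at 56.

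Which genes were found was also unlike between libraries. Across the 77 standard proteins, Spearman's rho of log2(CPM + 1) (CPM, counts scaled to the same total of gene counts per library, 1e6) between pairs of libraries ran from 0.0547 (TetHighProg 2 and TetLowReg 6) to 0.770 (TetLowReg 7 and TetLowProg 12). These correlations are across genes, which are not independent replicates, and are given as a description. TetHighProg 2 and TetLowReg 6 each had 21 of the standard proteins at 10 counts and shared 5 of them. The highest 3 values, 0.670 to 0.770, joined TetLowReg 7, TetLowReg 8 and TetLowProg 12, which come from both low avidity groups and are the libraries with 10 of 11 B cell genes. The part of B cell RNA in this likeness was not tested. TetLowProg 9 reached at most 0.495 with any other library.

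Over the 90 genes, 3 reached 10 counts in each of the 9 libraries, Rps25 and Rpl38 among them, 17 in 8 libraries and 4 in none. Rps25 (ENSMUSG00000009927; chromosome 9 of GRCm39, 44318436 to 44322627) was counted 47107, 38915 and 24834 times in TetHighProg, 32485, 8595 and 5611 in TetLowReg and 24426, 28971 and 9957 in TetLowProg, each in the order of the replicate numbers. It was high in every library, at 1347 ± 228 CPM for TetHighProg, 684 ± 686 for TetLowReg and 714 ± 420 for TetLowProg (SD, n = 3 each), and the groups overlapped. Rpl38 (ENSMUSG00000057322; chromosome 11, 114559350 to 114563166), a large-subunit protein known for its part in the translation of Hox mRNAs, had 64, 41 and 12 counts in TetHighProg 1, TetHighProg 5 and TetLowProg 10 and 9091 in TetLowProg 9. Rpl38 overlapped between all groups.

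Per kilobase of exon, which is the scale on which levels of different genes can be set side by side, the 10 highest medians over the 9 libraries included those of Rplp1 (495 CPM per kb), Rps25 (305), Rpl4 (209), Rps3a1 (80.4), Rpl13a (76.3), Rpl14 (75.4), Rpl10 (71.6), Rpl6 (50.9) and Rpl38 (50.2). The order rests on annotated exon lengths that include long alternative ends, and 5 of the 10 were also among the 10 highest per kilobase of coding sequence. Rps3a1 had fewer than 10 counts in TetHighProg 2, TetLowReg 6 and TetLowProg 10 although its median was among the highest.

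By role, the acidic stalk that recruits elongation factors (Rplp0, Rplp1 and Rplp2) was found whole in TetHighProg 5, TetLowReg 7 and 8 and TetLowProg 9 and 12. Rplp1, which passed 10 counts in 8 libraries, had 291, 354 and 40.9 CPM in TetHighProg 1, 2 and 5, 0.0454, 127 and 107 in TetLowReg 6, 7 and 8, and 763, 478 and 290.3 in TetLowProg 9, 10 and 12. The TetLowProg libraries lay above those of TetLowReg for Rplp1 (log2 fold change 1.83, standard error 3.47, adjusted p = 1.0) and overlapped with TetHighProg. Rplp0, the base of the stalk, had 8512, 0 and 543 counts in TetHighProg, 0, 841 and 420 in TetLowReg and 47149, 3 and 1856 in TetLowProg. Rplp2, the partner of Rplp1, had 1 to 38 counts in TetHighProg 1 and 2 and TetLowProg 10, none in TetLowReg 6, and 893 to 17960 in the other libraries. In the libraries with few genes the stalk was found in part or not at all, with 2 of its 3 genes at 10 counts in TetHighProg 1 and TetLowProg 10, 1 in TetHighProg 2 and 0 in TetLowReg 6.

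Rpl5 and Rpl11, which bind the 5S ribosomal RNA as a pair and hold back Mdm2 when ribosome assembly is disturbed, were both found in TetLowReg 7 and 8 and TetLowProg 9 and 12. Rpl5 had 855, 1 and 21341 counts in TetHighProg, 3927, 10870 and 9211 in TetLowReg and 18868, 159 and 20022 in TetLowProg. Rpl11 had 0 in all 3 TetHighProg libraries, 0, 1098 and 17 in TetLowReg and 14785, 0 and 740 in TetLowProg. Against the limit of 3 counts over the TetHighProg group, Rpl11 was at least 404-fold higher in TetLowReg and at least 4532-fold higher in TetLowProg, although a library of each low avidity group also had 0. Each bound rested on 1 library: it was 12 without TetLowReg 7 and 355 without TetLowProg 9. Its edgeR adjusted p was 0.233 and 0.193. For Rpl5 all groups overlapped, and the log2 fold changes were 0.71 (standard error 3.24) for TetLowReg and 0.23 (standard error 3.23) for TetLowProg, both against TetHighProg.

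Of the genes placed at the tunnel of the leaving peptide, Rpl4 had 35624, 140 and 25061 counts in TetHighProg, 2, 22229 and 4895 in TetLowReg and 88997, 13 and 30019 in TetLowProg. Each group of Rpl4 held a single library at 140 counts or fewer beside others at 4895 or more. Rpl17 had 0 to 3 counts in TetHighProg 1 and 2 and TetLowReg 6 and 724 to 12054 elsewhere. Rpl22, whose loss stops the development of alpha beta T cells in mice, had 0, 39 and 2014 counts in TetHighProg, 0, 961 and 235 in TetLowReg and 9054, 0 and 66 in TetLowProg. Its paralog Rpl22l1 had 13 counts in TetHighProg 5 and 0 in the other TetHighProg libraries, 0, 53 and 36 in TetLowReg, and 6905, 236 and 197 in TetLowProg. The TetLowProg libraries lay above both other groups for Rpl22l1, with log2 fold changes of 8.10 (standard error 5.68, adjusted p = 0.327) against TetHighProg and 4.72 (standard error 4.88, adjusted p = 1.0) against TetLowReg. Without TetLowProg 9 these were 5.54 and 2.23, and without TetHighProg 5 the first was 13.14. Rpl39, a very short protein of the tunnel, had 7901 counts in TetLowProg 9 and at most 59 in any other library.

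Small-subunit genes at the mRNA entry and head included Rps3, at or near 0 in TetHighProg. Rps3 (ENSMUSG00000030744; chromosome 7, 99098784 to 99132945) was counted 2, 0 and 8 times in TetHighProg, 43972, 13441 and 4889 in TetLowReg and 72831, 0 and 6544 in TetLowProg. All TetLowReg libraries lay above all TetHighProg libraries, while TetLowProg 10 was at 0. The means were 0.137 ± 0.189 CPM for TetHighProg, 887 ± 960 for TetLowReg and 737 ± 1102 for TetLowProg (SD, n = 3 each). Over the pooled counts Rps3 was 6775-fold higher in TetLowReg than in TetHighProg (2825 without TetLowReg 6 and 10348 without TetLowReg 7), with an edgeR log2 fold change of 12.81 (standard error 4.93, adjusted p = 0.233). Rps2 and Rps20, neighbors of Rps3, had 1576 and 90 counts in TetHighProg 5 and 0 in TetHighProg 1 and 2. Rps10 had 6791, 0 and 0 counts in TetHighProg, where a single library carried it.

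Around the decoding site and the platform, Rps14 had 2528, 0 and 6881 counts in TetHighProg, 0, 4261 and 1468 in TetLowReg and 30184, 9681 and 4953 in TetLowProg, whose libraries lay above those of TetLowReg. Rps23, which takes part in the accuracy of decoding, was at 0 in TetHighProg 1 and TetLowReg 6 and had 210 to 22479 counts in the other libraries. Rps15 and Rps26 followed the number of genes found, with 6 counts or fewer in TetHighProg 2, TetLowReg 6 and TetLowProg 10 and at least 388 elsewhere. Rpsa, also known as the laminin receptor, was the second highest gene of TetHighProg 2 with 32779 counts and had 1 count in TetHighProg 1 and 0 in TetLowReg 6. Rps27a is made as a fusion with ubiquitin, and Fau as one with a related protein. Rps27a had 2565, 1 and 1739 counts in TetHighProg, 0, 2676 and 757 in TetLowReg and 17856, 12 and 3486 in TetLowProg. Fau had 12895 counts in TetLowReg 6, where Rps27a had 0.

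Among genes with known roles in signaling, Rps6, the ribosomal protein phosphorylated by kinases downstream of mTORC1, had 0, 0 and 2545 counts in TetHighProg, 0, 626 and 413 in TetLowReg and 29868, 2776 and 1428 in TetLowProg. The TetLowProg libraries lay above those of TetLowReg for Rps6 (log2 fold change 3.50, standard error 4.53, adjusted p = 1.0), by 2.0 on the log2 scale without TetLowProg 9. Rpl13a, which represses certain inflammatory mRNAs once released from the ribosome, had 1048, 10831 and 4880 counts in TetHighProg, 6, 9296 and 1547 in TetLowReg and 42491, 23 and 6106 in TetLowProg. Rps19, mutated in Diamond-Blackfan anemia, had 0, 2 and 69 counts in TetHighProg, 0, 1407 and 329 in TetLowReg and 37834, 0 and 862 in TetLowProg. No group of Rpl13a or Rps19 stood clear of another.

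The paralogs took little of the counts, from 0.000626% (TetHighProg 2) to 4.43% (TetLowReg 7) of those on the 90 genes. Rpl10l, Rpl39l and Rps4l were at 0 in all 9 libraries, which allows at most 0.0824 CPM (TetLowReg 7) to 0.183 CPM (TetLowReg 8) for each. Rpl10l and Rpl39l are known from the testis. Rpl3l, a paralog of striated muscle, had 335 counts in TetLowReg 7 and 0 in all other libraries. Rpl7l1 had 6143 counts in TetHighProg 5, 5798 and 16 in TetLowReg 7 and 8 and 1242, 9393 and 4136 in TetLowProg, and 0 in the remaining libraries. Rps27l, a paralog induced by p53, had 364 to 3714 counts in TetHighProg 5, TetLowReg 7 and 8 and TetLowProg 9 and 12 and 0 in the other 4. Rpl36al reached at most 177 counts outside TetLowProg 9, where it had 3827. Rps27rt, an intronless copy of Rps27, lay between 0 and 386 counts, and its TetLowReg libraries lay above those of TetHighProg by CPM but not by count (log2 fold change 5.24, adjusted p = 0.426). Of the genes matched by name only, Rps23rg1 had at most 5 counts.

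Copies in the genome limit how these genes can be counted, because reads that map to several places were left out. A copy of at least 50 bases at 98% identity or more lay elsewhere in GRCm39 for the coding sequence of 67 of the 77 standard proteins (87.0%), and in 58 the copies covered at least 90% of the coding sequence. Rpl21 had the most, at 17 places. The 10 without a copy included Rpl4, Rpl13a, Rpl22, Rpl32, Rps3, Rps9, Rps14, Rps15 and Rps21. The coding sequences of 11 of the 90 genes also overlapped exons of another counted gene, among them Rpl24 (83.4%, with Gm28037), Rpl28 (100% with Ube2s), Rpl13a (97.5% with Gm45713) and Rps25 (24.5% with Cenatac). Reads in such overlaps count for neither gene. Rpl24 never passed 173 counts while Rpl13a reached 42491 and Rpl28 7684 in TetLowProg 9, and the part of the overlaps in these counts was not tested. Levels of copied or overlapping genes are therefore uncertain. In TetHighProg 1, TetHighProg 2, TetLowReg 6 and TetLowProg 10, 7, 4, 2 and 6 of the 10 genes without a copy reached 10 counts, and 29, 16, 17 and 29 of the 58 copied ones. The share found was higher without a copy in all of these but TetLowReg 6. In TetLowReg 7 and TetLowProg 9 all 10 and all 58 did. The annotated pseudogenes marked -ps, 29 in all, held between 0.0578% (TetLowReg 6) and 1.53% (TetHighProg 1) as many counts as the 90 genes. Genes with and without a pyrimidine run at the start were both found in part: 11 of 24 against 18 of 33 in TetHighProg 1, 9 of 24 against 9 of 33 in TetHighProg 2, 5 of 24 against 10 of 33 in TetLowReg 6 and 10 of 24 against 14 of 33 in TetLowProg 10.

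The comparison of low avidity cells from regressing tumors with high avidity cells from progressing tumors asked which genes go with avidity and outcome together. Rps3, Rps15a and Rps18 had at most 24 counts in any TetHighProg library and at least 108 in TetLowReg 7 and 8, while edgeR's quasi-likelihood test called none of the family. Of 5813 genes tested, 84 were ribosomal protein genes, and 0 of the 84 passed an adjusted p (Benjamini-Hochberg) of 0.05 with an absolute log2 fold change above 2, as did 0.0% of all genes tested. The smallest adjusted p was 0.233. At an unadjusted p of 0.05, 3 of the 84 were higher in TetLowReg, Rps3 and Rps19bp1 among them, and none lower, against 19.0% of all genes higher. Among the 84, the fold change was above 0 in 55 and below it in 29, with a median of 1.14 on the log2 scale, and the median over all genes tested was 4.82. The order of these medians depended on the genes and groups in the fit: with the 2 groups alone edgeR tested 2529 genes and gave 0.79 and 0.35. The tally of directions depended on the fit too. DESeq2 with 3 groups and poscounts size factors gave 45 above 0 and 42 below (median 0.07), and limma-voom 75 and 9 (median 5.35). Fitted to the 2 groups alone, DESeq2 called 7 of 66 higher (10.6%), against 33.6% of all genes. With 3 groups in the model it called 6 of 70 (34.1% of all genes) and, with poscounts size factors, 2 of 56 (25.8%). Limma-voom called 28 of 84 (41.3% of all genes). The share called among these genes was below that of all genes by DESeq2 and limma-voom. By edgeR with 3 groups in the model it was 0 for both, and no tool called any of them lower. The genes tested were kept by their counts over the libraries of the fit. TetLowReg 7 and 8 had 8004 and 7234 genes at 10 counts and TetHighProg libraries at most 3181. Genes can so be kept through low avidity libraries alone, and the shares of all genes are no neutral background. With the 2 groups alone edgeR called 2 of 2529 genes and 0 of the 73 ribosomal protein genes among them.

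The groups did not overlap for 10 of the 84 genes (11.9%, against 5.80% of all genes), of which 9 were higher in TetLowReg. Among the largest fold changes of these were those of Rps3 (12.81), Rps18 (9.78), Rps15a (8.62) and Rpl39 (5.86), and the changes of Rpl21, Rpl23, Rps27 and Rps27rt were smaller. Some of these rest on counts near 0 in TetLowReg 6, where Rps18 had 1 count and Rpl39 had 2. For Rps18 and Rps27rt the separation came from scaling to depth alone, since Rps18 also had 1 count in TetHighProg 5 (0.0441 against 0.0454 CPM) and Rps27rt had 4 counts in TetHighProg 1 and 3 in TetLowReg 8 (0.120 against 0.183 CPM). Rpl37, a large-subunit protein, was the one that was lower, TetHighProg having 23539, 10219 and 2552 counts and TetLowReg 0, 786 and 1353 (log2 fold change -3.49, standard error 3.83, adjusted p = 0.617). In TetLowProg, Rpl37 had 20881, 0 and 4251 counts.

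The study's own list of genes higher in TetLowReg holds 7 symbols matched by the rule, among them Rps3, Rps15a, Rps18, Rps28, Rps4x and Rps19bp1. It was drawn from these libraries, so the direction of these genes is not independent evidence. Rps15a, of the platform, had 0, 1 and 24 counts in TetHighProg, 8150, 1006 and 242 in TetLowReg and 15864, 190 and 1043 in TetLowProg. Every low avidity library lay above every TetHighProg library for Rps15a. Rps18, in the head of the small subunit, had 0, 0 and 1 counts in TetHighProg, 1, 784 and 108 in TetLowReg and 21454, 0 and 2657 in TetLowProg, a ratio of 971 between TetLowReg and TetHighProg with a 95% counting interval of 174 to 38398. Without TetLowReg 7 this ratio was 231.

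Rps28, near the exit of the mRNA, had 0, 0 and 1 counts in TetHighProg, 0, 369 and 153 in TetLowReg and 9494, 280 and 276 in TetLowProg. Its ratio between TetLowReg and TetHighProg was 568 (counting interval 101 to 22463), and 324 without TetLowReg 7. Rps4x, an X-linked small-subunit protein, had 1, 0 and 2 counts in TetHighProg, 0, 430 and 298 in TetLowReg and 24218, 1 and 857 in TetLowProg, a ratio of 264 (counting interval 89.9 to 1283). Rps19bp1, which binds Rps19 and the deacetylase Sirt1, was at 0 in TetHighProg and had 0, 305 and 1105 counts in TetLowReg and 714, 0 and 2023 in TetLowProg. For Rps28, Rps4x and Rps19bp1, TetLowReg 6 was at 0, so that their groups overlapped. Rps3 and Rps15a were the genes of this list with at least 242 counts in all 3 TetLowReg libraries. In edgeR the 7 genes had log2 fold changes with a median of 9.78 and adjusted p-values of 0.233 for Rps3 and Rps19bp1 and up to 0.340 for Rps4x, and DESeq2 on the 2 groups called all 7. TetLowReg 7 and 8 also held 10 of 11 B cell genes, and the part of such RNA in these counts was not tested. TetLowReg 6 had none of the B cell genes at 10 counts. It was the highest TetLowReg library for Rps3 and Rps15a, but had 1 count of Rps18 and 0 of Rps28, Rps4x and Rps19bp1.

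**Figure D4:**
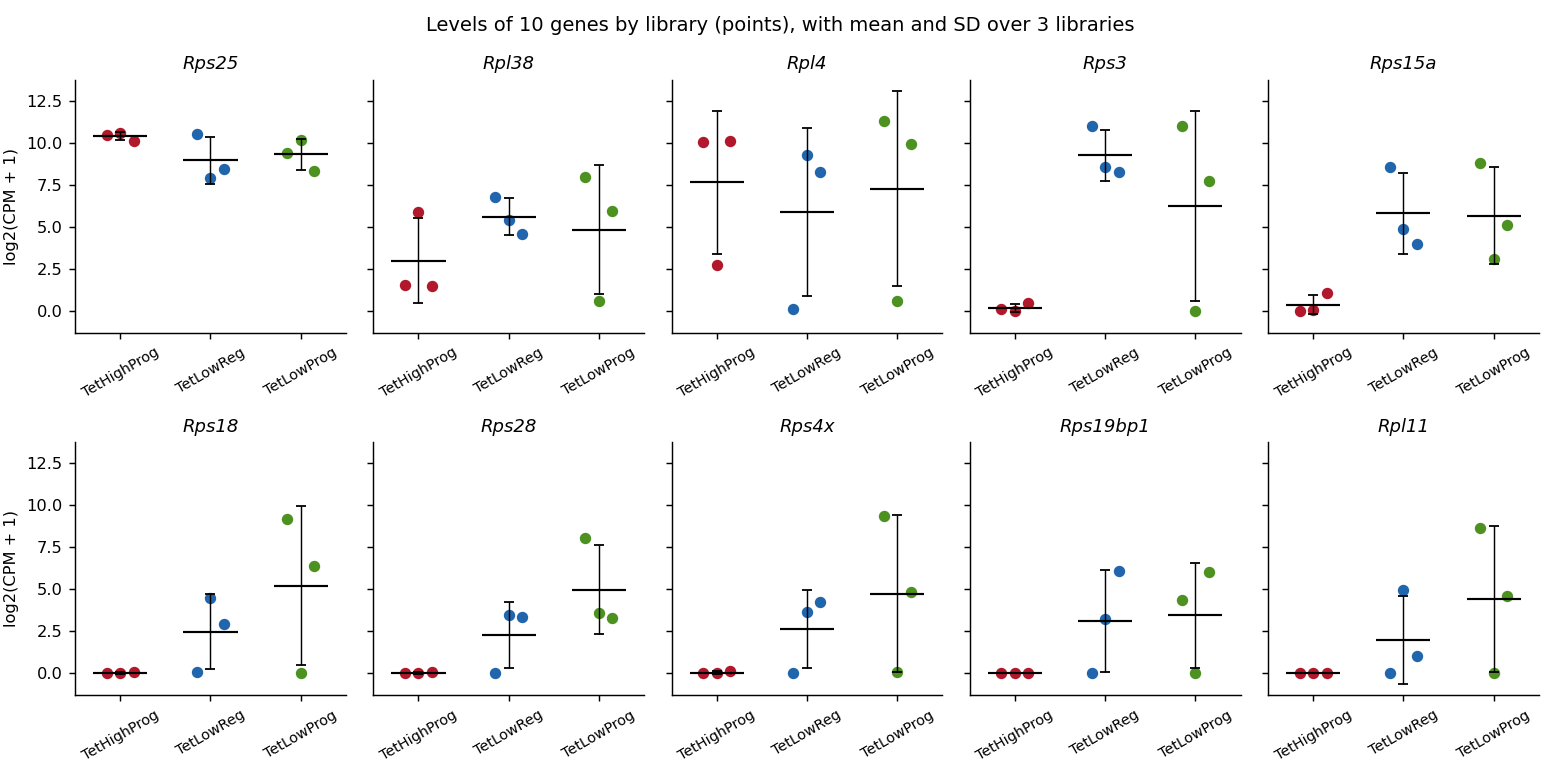
Levels of 10 genes as log2(CPM + 1), with 1 point per library, a black bar for the mean and whiskers for the SD over 3 libraries. Rps25 stays high in all 9 libraries, while Rps3, Rps15a, Rps18, Rps28, Rps4x, Rps19bp1 and Rpl11 sit at or near 0 in the 3 TetHighProg libraries and are spread from 0 upwards in most low avidity groups.

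The comparison of low with high avidity cells within progressing tumors uses the same TetHighProg libraries as the one above. Rps28, with 9494, 280 and 276 counts in TetLowProg and 0, 0 and 1 in TetHighProg, was among the genes whose groups lay far apart. Its ratio over the pooled counts was 8801 (95% counting interval 1579 to 347637) and 799 without TetLowProg 9, and edgeR gave 11.81 on the log2 scale (standard error 6.62, adjusted p = 0.211). Again 0 of the 84 genes tested were called, as were 0.0% of all genes. At an unadjusted p of 0.05, 6 of 84 were higher, among them Rps3, Rps19bp1, Rpl11, Rpl29 and Rpl35a, and none lower, against 24.8% of all genes higher. Of the 84, 73 had fold changes above 0 and 11 below it. Their median was 2.6 on the log2 scale and that of all genes 5.40, but 2.56 and 0.76 with the 2 groups alone and 2.67 and 1.06 with a stricter filter on low counts. The tally depended on the fit as well. DESeq2 with poscounts size factors gave 50 above 0 and 36 below (median 0.58), and limma-voom 80 and 4 (median 7.04). Fitted to this pair, DESeq2 called 10 of 64 higher (15.6%, against 45.7% of all genes), with 3 groups 14 of 70 (42.7% of all genes) and with poscounts factors 6 of 55 (23.2%), and limma-voom called 41 of 84 (49.6%). The limit on the shares of all genes given above holds here too. The groups did not overlap for 13 of the 84 (15.5%, against 7.17% of all genes), each higher in TetLowProg. Rps28 (11.81), Rpl39 (10.70), Rps15a (8.35) and Rpl22l1 (8.10) were among the 5 with the largest fold changes, and Rpl14, Rpl21, Rpl23, Rpl23a, Rps13, Rps21 and Rps27 among the rest. TetLowProg 9 supplied much of the size of these differences: Rpl39 had 7901 counts there and 4 and 53 in TetLowProg 10 and 12. Without it the log2 fold changes were 9.14 for Rps28, 5.12 for Rpl39, 6.0 for Rps15a and 5.54 for Rpl22l1.

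Low avidity cells of progressing and of regressing tumors were compared last, with the TetLowProg and TetLowReg libraries already used above. EdgeR called 0 of 84 (0.0% of all genes), with none at an unadjusted p of 0.05 in either direction, against 0.43% of all genes higher, and the smallest adjusted p of the family was 1.0. DESeq2 on the 2 groups called 0 of 64 (0.189% of all genes higher), DESeq2 with 3 groups 0 of 68 (1.52%) and with poscounts factors 0 of 58 (0.261%), and limma-voom 0 of 84 (0.0%). The fold changes were mostly positive, 74 against 10, with a median of 1.66 on the log2 scale and 0.35 over all genes. With poscounts factors DESeq2 gave 58 against 29, with medians of 0.63 and -1.81. With scaling by library size alone edgeR gave 80 against 4, with medians of 2.79 and 1.23. The groups did not overlap for 11 of the 84 (13.1%, against 3.42% of all genes), all higher in TetLowProg. The largest fold changes of these were those of Rpl22l1 (4.72), Rps13 (3.73), Rpl10 (3.72) and Rps6 (3.50), and Rpl26, Rpl23a, Rplp1, Rps14 and Rpl21 were among the rest. For Rpl10, which completes the large subunit late in its assembly, the counts were 0, 524 and 989 in TetLowReg and 18713, 20267 and 4889 in TetLowProg, beside 399, 24669 and 5062 in TetHighProg. For Rps13 they were 13, 1278 and 14 in TetLowReg and 18260, 11718 and 2004 in TetLowProg, and its log2 fold change was 8.79 without TetLowReg 7.

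**Figure D5:**
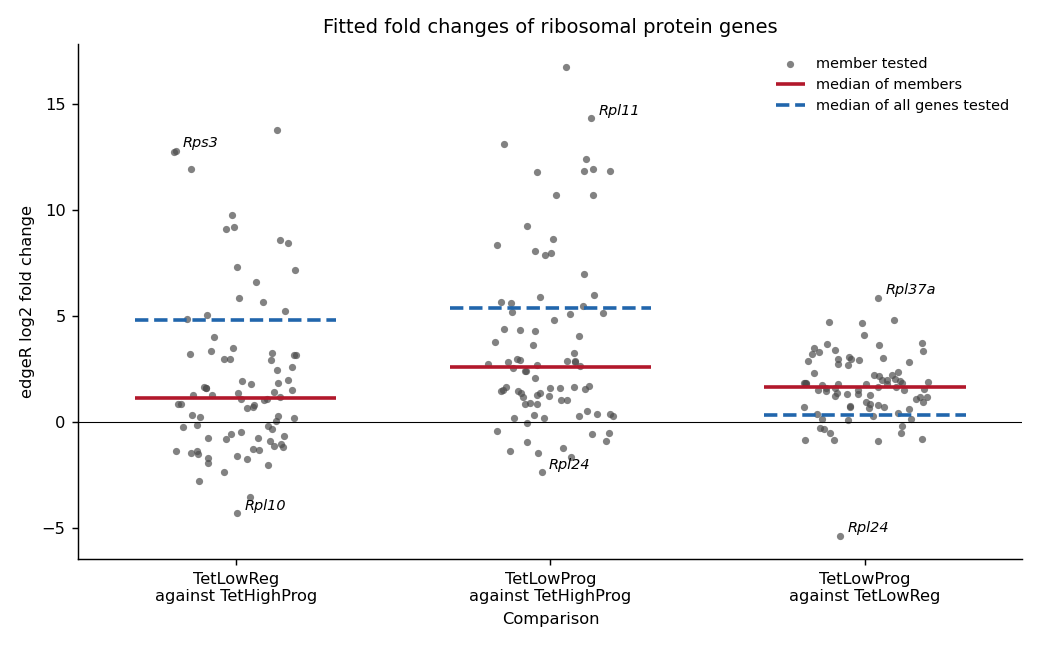
The edgeR log2 fold changes (vertical axis) of the 84 ribosomal protein genes tested, 1 point per gene, in each of the 3 comparisons (horizontal axis), with the median of these genes as a solid red line and that of all genes tested as a dashed blue line. Against TetHighProg the red lines (1.14 and 2.6) lie below the blue ones (4.82 and 5.40), and between the low avidity groups the red line (1.66) lies above (0.35). With the 2 groups of a comparison fitted alone, the red line would lie above in all 3, at 0.79, 2.56 and 1.66 against 0.35, 0.76 and 0.33.

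Whether the balance of the subunits separated the groups depended on how it was weighted. Large-subunit genes held 58.4%, 47.6% and 61.0% of the ribosomal protein counts in TetHighProg, 37.1%, 59.0% and 57.2% in TetLowReg and 53.7%, 45.7% and 64.0% in TetLowProg. The lowest values belonged to TetLowReg 6, TetLowProg 10 and TetHighProg 2, in which Rps3, Rps25 and again Rps25 led. The differences were -4.55 percentage points for TetLowReg minus TetHighProg (exact p = 0.6), -1.19 for TetLowProg minus TetHighProg (exact p = 0.9) and 3.37 for TetLowProg minus TetLowReg (exact p = 0.7). Weighted equally by gene, the measure was the mean log2(CPM + 1) of large minus that of small-subunit genes. By it, both low avidity groups lay below TetHighProg without overlap, by -0.68 for TetLowReg and -0.74 for TetLowProg on the log2 scale (exact p = 0.1 for both). TetLowProg minus TetLowReg was -0.06 (exact p = 0.5). This mean took all genes by symbol, so Rps19bp1 and Rps23rg1 counted as small-subunit genes. Genes at 0 entered it too, up to 53 in a library (TetHighProg 2), so it also reflects which genes were found. It was not run on the standard proteins alone or with libraries left out. With the highest gene of each library left out, TetLowReg minus TetHighProg was -11.6 points and the groups no longer overlapped (exact p = 0.1), and TetLowProg minus TetHighProg was -8.89 points (exact p = 0.2). The sign of each difference in share changed when 1 library was left out: without TetLowReg 6 the first was 2.44, without TetLowProg 10 the second was 3.20, and without TetLowReg 6 the last was -3.63.

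Genes that build ribosomes or control these mRNAs showed the same unevenness in detection. Of 70 genes for ribosome biogenesis, among them Ncl, Npm1 and Fbl, 11, 7 and 25 had 10 counts in TetHighProg, 7, 48 and 47 in TetLowReg and 61, 11 and 54 in TetLowProg. Of 23 genes for mTORC1 and the control of TOP mRNAs, 4, 0 and 6 were found in TetHighProg, 3, 16 and 15 in TetLowReg and 17, 1 and 17 in TetLowProg. Mtor itself had 0 counts in all 3 TetHighProg libraries, 0, 29 and 10 in TetLowReg and 3501, 0 and 2169 in TetLowProg, and Larp1 was found only in TetLowReg 7, TetLowProg 9 and TetLowProg 12 (114, 18 and 369 counts). Rps6kb1, a kinase of Rps6, had counts in every library but TetHighProg 2, from 1985 to 37365. Of 21 other genes with TOP mRNAs, such as Eef1a1, Eef2 and Tpt1, 7, 6 and 13 were found in TetHighProg, 5, 20 and 18 in TetLowReg and 21, 9 and 21 in TetLowProg. Tpt1 had 4856 to 62223 counts in each of the 9 libraries, and Eef1a1, an elongation factor, had 0 in TetLowReg 6, 3 in TetHighProg 1 and 224865 in TetLowProg 9. EdgeR called 0 genes of these 3 lists in any comparison. At an unadjusted p of 0.05, 9 of 50 biogenesis genes tested were higher in TetLowReg than in TetHighProg and 14 of 50 in TetLowProg, with 1 and 3 of 14 for the mTORC1 list and 2 and 4 of 20 for the other TOP mRNAs, to be read beside 19.0% and 24.8% of all genes.

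Markers of other cells were present unevenly as well. Of 18 genes of macrophages and dendritic cells, 1 was found in each TetHighProg library, 0, 7 and 6 in TetLowReg and 4, 2 and 5 in TetLowProg. Lyz2 alone had 51557, 0 and 3744 counts in TetHighProg, 5, 299515 and 19392 in TetLowReg and 0, 0 and 18079 in TetLowProg. Of 15 genes of CT26 tumor and stroma, 0 to 7 were found, taking at most 0.0387% of gene counts (TetHighProg 1). Krt8 and Krt18 were at 0 in every library, while Col1a2 had 12437 counts in TetHighProg 1 and 1906 in TetHighProg 5, and Pecam1 had 3038 in TetLowProg 9. Of 7 erythroid genes 3 were found in TetLowReg 7, TetLowReg 8 and TetLowProg 12 and none elsewhere. TetLowProg 9, with the highest share of ribosomal protein counts, had 1 of the 11 B cell genes (Ighm, 8777 counts), none of the erythroid genes and 4 of the 18 genes of macrophages and dendritic cells at 10 counts (Cst3 with 1514, Siglech with 807, Cd68 with 570 and C1qb with 15). Their part in its values was not tested. All 20 T cell genes were found in it.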

How the data were processed

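Bulk RNA-seq libraries of sorted T cells were analysed, 3 per group. The deposited tables, 1 for each library, hold raw counts of reads on each gene. The authors had aligned the reads to GRCm39 using STAR 2.7.6a. The methods name featureCounts, but the tables are laid out as STAR writes its own gene counts. The release of the annotation is not given in the sources used here. Summary lines (unmapped 5.02% to 10.4% of reads, several places 7.51% to 14.5%, ambiguous 1.05% to 1.96%, no gene 18.5% to 41.3%) were left out. Unstranded counts were used, since 50.2% to 50.8% of stranded counts fell on one strand. Depth was 16405306 to 36429515 gene counts per library.

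Names, coordinates and coding sequences came from GENCODE M39 (28645 of 32976 genes matched), start sites from RefSeq (GRCm38.p6). Copies were searched with blastn 2.17.0. The main test was that of edgeR 4.0.16 (quasi-likelihood fit, TMM, default filter, 3 groups in one model; R 4.3.3) over all genes, with calls at an adjusted p of 0.05 where the log2 fold change exceeded 2 in size. Fold changes against a group near 0 depend on its prior count, and standard errors were taken as the fold change over the square root of F. DESeq2 1.42.0, limma-voom 3.58.1, other filters and scalings and each library left out were alternatives. The 3 tools were also run on simulated data, but the outcome is not reported here and does not vouch for the calls of any tool. The common dispersion that edgeR estimated was 8.12. With a spread this wide and 3 libraries a group, 0 calls by edgeR do not show that levels were alike. Measures with 1 value a library were tested by exact permutation (two-sided, SciPy 1.17.1). A group at 0 was given a limit of 3 counts over all its libraries.

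Named were the 10 highest genes per kilobase of exon, those with at least 10 counts in all libraries, the highest of each library, those at 0 throughout, up to 5 per direction and comparison without overlap, and the role, paralog and study lists. Some genes that this rule names are not reported here. Other genes were named as examples after their values were seen. The members and lists were chosen with earlier results of these data known. Lists also cover T cells, B cells, macrophages and dendritic cells, CT26 tumor and stroma and erythroid cells.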

Additional observations from a re-analysis of the deposited data

How the results depend on the processing

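The count of ribosomal protein genes called depended on the tool: edgeR called 0 in the comparisons with TetHighProg under every filter, scaling and omission run, while DESeq2 called 6 (3 groups), 2 (poscounts factors) and 7 (2 groups alone) and limma-voom 28 for TetLowReg (34.1%, 25.8%, 33.6% and 41.3% of all genes), and 14, 6, 10 and 41 in the same order for TetLowProg (42.7%, 23.2%, 45.7% and 49.6%). Between the low avidity groups every tool called 0. The cause was not tested. The fold changes of the genes of the study's list (TetLowReg against TetHighProg) and of the 5 largest without overlap in each direction and comparison kept their direction under every alternative run, and other genes were not followed. The difference in share between TetLowReg and TetHighProg changed sign to 0.0130 points with mitochondrial genes left out of the total, since they held 44.5% of TetLowReg 7. The sign of the large-subunit share between TetLowProg and TetLowReg changed to -0.0615 (log2 scale) for mean log2 CPM of large minus small, by which TetLowReg and TetLowProg both lay below TetHighProg (-0.68 and -0.74, exact p = 0.1). That mean includes genes at 0, and Rps19bp1 and Rps23rg1 among the small-subunit genes. With each library left out in turn, the differences in genes found ranged from 7.5 to 39.5, 13.2 to 40 and -14.8 to 21.0 (TetLowReg minus TetHighProg, TetLowProg minus TetHighProg, TetLowProg minus TetLowReg). Those in share ranged from -0.231 to -0.0766, 0.172 to 2.19 and 0.311 to 2.33 points, and those in large-subunit share from -8.57 to 2.44, -5.95 to 3.20 and -3.63 to 7.76 points. Leaving out libraries for the pooled ratios of single genes was chosen after seeing the data. No paired analysis was possible, because the labels do not tie libraries to tumors and the groups share no replicate numbers. PCR copies are counted separately in these libraries, so a high count need not mean many molecules, and a count of 0 limits the level only as far as depth allows.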
